A study of Mus musculus with 3 samples.

Results

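Natural killer (NK) cells of the inflamed sciatic nerve were described from the cells that the authors' deposited cell table places in its class gdT/NK/NKT and in cluster 8. The class name joins gamma-delta T cells, NK cells and NKT cells, and the table divides the class into clusters 8 and 9. Cluster 8 held 569 of the 11640 cells deposited, with 202, 123 and 244 cells in libraries 1, 2 and 3. It was compared, library by library, with the 478 cells of cluster 9 (151, 255 and 72) and with the 2171 cells of the authors' class Cd8 (1045, 496 and 630), the CD8 T cells.

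All 3 libraries came from 1 genotype, NOD.AIRE GW/+, at 15 weeks of age, and held CD45+ leukocytes of sciatic nerves taken after cardiac perfusion and digested with collagenase. NOD is an inbred mouse strain prone to autoimmunity. The GW allele alters Aire, the gene through which the thymus displays tissue antigens, and every cell group described here carries it. Wild-type nerves were not analysed here, so no difference below is an effect of the genotype. Libraries 1 and 2 were read from the 3′ end of transcripts and library 3 from the 5′ end, and the name of library 1 ends in "pos", a term that the labels do not explain. The labels do not say whether the libraries came from separate animals or pools. Every p-value therefore sets a difference between groups only against its spread over these libraries.

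NK cells are innate lymphocytes that kill stressed or infected cells with perforin and granzymes and that release interferon-gamma and chemokines. They carry no rearranged antigen receptor. In mice, receptors of the Ly49 family, encoded by the Klra genes, and the CD94-NKG2 pairs read MHC class I or related molecules on other cells. Many Ly49 receptors inhibit the cell, while those that Klra4 and Klra8 encode in C57BL/6 mice (Ly49D and Ly49H) activate it through the adaptor DAP12 (Tyrobp). Of the other receptors named here, NKp46 (Ncr1), NKG2D (Klrk1) and NK1.1 (Klrb1c) also activate, through adaptors such as DAP12 and the Fc receptor gamma chain (Fcer1g).

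The 4 genes that mark the cells are protein coding and lie on 3 chromosomes of the mouse build mm10, by the GENCODE M21 annotation. Ncr1 is on chromosome 7 from 4337724 to 4345164. Gzma, which encodes the protease granzyme A, is on chromosome 13 from 113093825 to 113100981. Klra4 (chromosome 6, 130043731 to 130067271) and Klra8 (chromosome 6, 130115226 to 130129898) encode Ly49 receptors and stand in 1 gene cluster. The 250 bases before the start of each gene, from RefSeq (GRCm38.p6, the assembly of mm10), are shown because all 4 genes were higher in cluster 8 than in both other groups, so that their starts can be set side by side. They are printed 5′ to 3′ on the strand of the gene, with Ncr1 on the plus strand at chr7:4337474-4337723, Gzma on the minus strand at chr13:113100982-113101231, Klra4 on the minus strand at chr6:130067272-130067521 and Klra8 on the minus strand at chr6:130129899-130130148. Capitals mark matches, on either strand, to the letters of 4 motifs searched (Runx, T-box, Ets and TATA).
Ncr1: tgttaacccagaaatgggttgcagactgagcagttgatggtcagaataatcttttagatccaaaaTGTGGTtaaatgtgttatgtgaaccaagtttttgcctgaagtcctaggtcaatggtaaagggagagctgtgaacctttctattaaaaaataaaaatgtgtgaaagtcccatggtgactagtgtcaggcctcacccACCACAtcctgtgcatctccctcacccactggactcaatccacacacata
Gzma: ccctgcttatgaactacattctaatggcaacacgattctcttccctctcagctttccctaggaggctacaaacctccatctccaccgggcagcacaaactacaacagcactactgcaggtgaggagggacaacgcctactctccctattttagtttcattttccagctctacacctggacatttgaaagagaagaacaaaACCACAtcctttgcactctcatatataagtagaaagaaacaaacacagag
Klra4: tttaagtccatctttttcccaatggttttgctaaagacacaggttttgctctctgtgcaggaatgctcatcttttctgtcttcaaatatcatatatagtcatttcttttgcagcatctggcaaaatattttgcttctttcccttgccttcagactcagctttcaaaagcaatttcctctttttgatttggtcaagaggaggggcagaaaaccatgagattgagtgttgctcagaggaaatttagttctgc
Klra8: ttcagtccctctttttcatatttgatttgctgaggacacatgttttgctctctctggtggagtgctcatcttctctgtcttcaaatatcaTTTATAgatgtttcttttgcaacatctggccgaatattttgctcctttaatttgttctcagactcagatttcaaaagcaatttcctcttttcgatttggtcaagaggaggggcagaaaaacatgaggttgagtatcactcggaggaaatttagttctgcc
RefSeq gives 2 starts for Ncr1 and 2 for Klra8, and 1 window of each is printed. The Runx letters, TGTGGT, stood in the Ncr1 window at 185 and 50 bases before the start and in the Gzma window at 50 bases before it. Before the other Ncr1 start they stood at 176 and 41 bases, so the position depends on the start taken. Of 32851 RefSeq windows of the same length, 14.0% held them on at least 1 strand. The TATA letters, TATAAA, stood on the opposite strand of the Klra8 window and in 12.4% of all windows. The T-box letters, AGGTGTGA, were in none of the 4 windows printed, and in 1.12% of all windows. The Ets letters, CCGGAAG, were likewise in none of the 4, and in 6.91% of all windows. The windows of Klra4 and Klra8 had 212 of 250 bases the same when aligned (84.8%). With the window of the other Klra8 start it was 163 (65.2%). A match of letters is a description and not a binding site.

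The median cluster 8 cell held 5645 unique molecular identifiers (UMIs, 1 per captured transcript), against 4681 in cluster 9 and 4120 in class Cd8. Library sums of UMIs ran from 777575 to 1359952 in cluster 8. No barcode of a cluster 8 cell occurred in another library, and scrublet called 2 of the 569 cells doublets. Some genes carry different names in libraries 1 and 2 and in library 3. Markers of neutrophils, fibroblasts and red cells that the table holds were at 0 in cluster 8. The 4 B cell markers summed to 61.5, 1.29 and 4.41 counts per 1000000 UMIs (CPM) in libraries 1, 2 and 3 of cluster 8, and the 6 macrophage markers to 31.7, 1.29 and 5.88. The 4 Schwann cell markers summed to between 33.1 and 49.9 CPM, with Pmp22 at 0. Library 1 was highest in all 3 sums, and the part of these transcripts in the results was not tested.

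Cluster 8 made up 3.35%, 5.27% and 7.45% of the cells of libraries 1, 2 and 3 (exact binomial 95% intervals 2.91 to 3.83, 4.40 to 6.26 and 6.58 to 8.41, counting error only). The mean was 5.36 ± 2.05% (SD, n = 3), and the 3 intervals did not overlap. Among lymphocytes without B and plasma cells the share was 5.26%, 5.87% and 9.20%. There the intervals of libraries 1 and 2 overlapped (4.58 to 6.02 and 4.90 to 6.96), and that of library 3 was 8.13 to 10.4. Within the class gdT/NK/NKT the share was 57.2%, 32.5% and 77.2%, so cluster 8 was the larger cluster in libraries 1 and 3 and the smaller in library 2.

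The marker genes fit the name. Ncr1 stood at 283, 173 and 471 CPM in libraries 1 to 3 of cluster 8 (TMM-scaled, as are all levels below unless marked). It stood at 18.8, 0 and 38.9 in cluster 9 and at 0.496, 0.411 and 0.871 in class Cd8. Cluster 8 was above both other groups in every library, with a log2 fold change over cluster 9 of 4.42 (SE 0.31; 3.73 without library 2 and 5.10 without library 3). When cells were thinned to 1000 UMIs each, 20.5 ± 11.7% of cluster 8 cells held an Ncr1 UMI, against 0.925 ± 0.803% in cluster 9 and 0% in class Cd8 and in B cells (SD over 3 libraries; 45.5 ± 12.9% in cluster 8 with all UMIs). Tyrobp stood at 2134, 2502 and 2323 CPM, against 324, 177 and 327 in cluster 9 and 15.4, 3.29 and 11.9 in class Cd8. Klrb1c had 2 UMIs in all of class Cd8 and 68.9 ± 42.6 CPM in cluster 8. Since the authors drew the clusters from these counts, such differences describe what the cluster is, and a p between clusters is no evidence that they are distinct.

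CD3 transcripts were also present. T cells carry CD3 at the surface with the antigen receptor, and 462 of 569 cluster 8 cells (81.2%) held at least 1 UMI of Cd3d, Cd3e or Cd3g, against 99.6% in cluster 9 and 99.7% in class Cd8. The chains differed. Cd3g stood at 917, 1785 and 821 CPM in cluster 8, against 2863, 3142 and 2406 in cluster 9 and 1675, 2150.4 and 1571 in class Cd8. Cd3e stood at 72.9, 128 and 141 CPM, against 906, 759.9 and 2312 in cluster 9 and 803, 823 and 2334 in class Cd8. The Cd3e values did not overlap with those of either other group, while Cd3g in library 2 of cluster 8 lay within the range of class Cd8. At 1000 UMIs a cell, Cd3e was seen in 6.93%, 8.94% and 13.9% of cluster 8 cells of libraries 1 to 3 and in 3.5%, 1.14% and 14.2% of B cells, which lack CD3. In library 3 the share was no higher than in B cells. Cd3g was seen in 51.9 ± 13.1% of cluster 8 cells and 6.004 ± 5.01% of B cells, so its share was above what B cells held. Trac, the T cell receptor alpha constant gene, stood at 52.9 ± 30.2 CPM in cluster 8, 385 ± 173 in cluster 9 and 617 ± 263 in class Cd8. The beta constant genes were higher than Trac in each library of cluster 8. Unscaled, Trbc1 stood at 256, 273 and 61.0 CPM, Trbc2 at 357, 328 and 83.1 and Trac at 79.7, 36.0 and 36.0. In library 1 of cluster 9, Trbc1 and Trbc2 stood at 929 and 897 CPM (unscaled). Trdc, the delta constant gene, stood at 239 ± 131, 524 ± 308 and 24.9 ± 17.4, and Cd8a at 12.3 ± 4.8, 336 ± 216 and 780.3 ± 226. The plot of NK and T cell receptor transcripts shows the values by library.

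**Figure D1:**
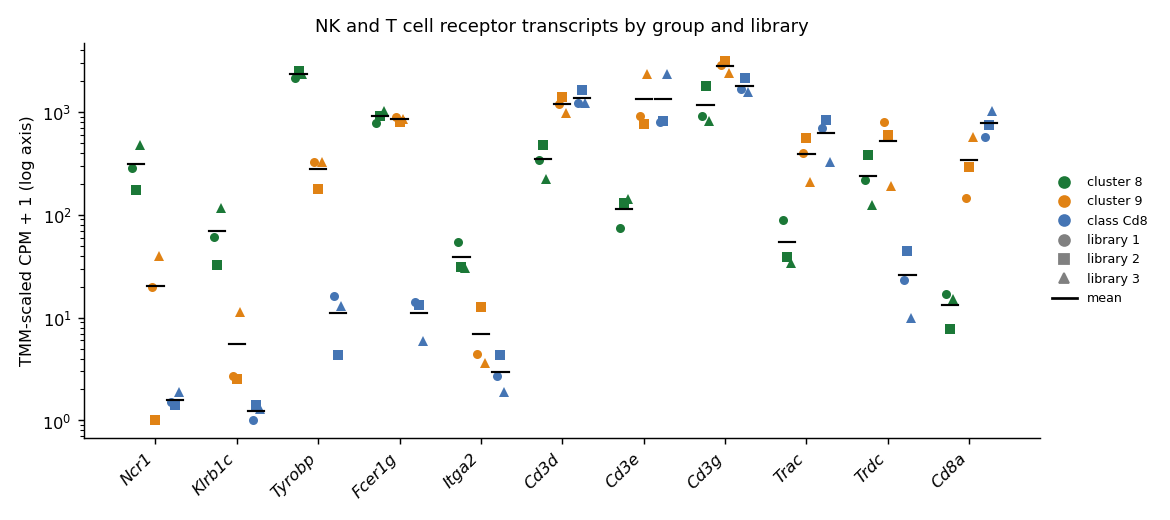
TMM-scaled CPM plus 1 on a log axis for 11 genes, in cluster 8, cluster 9 and class Cd8, with 1 point per library and a bar at the mean of 3. Ncr1, Klrb1c, Tyrobp and Itga2 are highest in cluster 8 in every library, Fcer1g is at similar levels in both clusters, and Cd3e, Trac and Cd8a are lowest in cluster 8.

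The 129 cluster 8 cells with a Cd3e UMI (22.7%) differed from the rest in more than CD3. Cells were thinned to 2000 UMIs, which left 23, 23 and 28 cells with a Cd3e UMI, and shares of cells with a UMI of other genes were set beside each other as a description. Tyrobp was held by 43.5%, 21.7% and 67.9% of the Cd3e cells of libraries 1 to 3, against 85.6%, 89.9% and 90.5% of the others. Irf8, a transcription factor that NK cells need to expand in viral infection, was held by 26.1%, 30.4% and 39.3% against 71.9%, 77.8% and 76.8%. Both genes were thus seen in a smaller share of Cd3e cells in each library. Il7r, the interleukin 7 receptor, went the other way, with 47.8%, 39.1% and 25% against 8.98%, 5.05% and 6.55%. Ncr1 was not ordered alike across libraries, at 34.8%, 26.1% and 32.1% against 33.5%, 15.2% and 47%. Counts of genes below are therefore also given without the cells that held a Cd3e UMI, a setting chosen after these values were seen. They are also given without the 462 cells that held any CD3 UMI, of which libraries 1, 2 and 3 held 157, 115 and 190. That left 45, 8 and 54 cluster 8 cells, so library 2 then rests on 8 cells. Both settings remove cells from cluster 8 only and by T cell genes, so lower values of T cell genes there are no check.

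Between cluster 8 and cluster 9, 494 of 8801 tested genes passed an adjusted p of 0.05 in edgeR's quasi-likelihood test with the library as a block (5.61%): 241 were higher in cluster 8 (2.74%) and 253 lower (2.87%). For 9.65% of tested genes the 3 values of cluster 8 did not overlap with those of cluster 9. Between cluster 8 and class Cd8, 1853 passed (21.1%), 939 higher (10.7%) and 914 lower (10.4%), and 17.3% of genes did not overlap. Both comparisons use the same cluster 8 sums, and their values are given side by side only. Without Cd3e cells the counts were 455 and 1675, and without any CD3 cells 293 and 762. Leaving out library 1 gave 327 and 1504, and leaving out library 3 gave 230 and 1155. Without the library block, which leaves the difference between 3′ and 5′ libraries in the spread, 18 and 329 genes passed. A level summed over cells does not tell more cells with a transcript from more transcripts per cell.

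The 10 genes with the largest rise over cluster 9, among those of at least 50 CPM in cluster 8, included Klri2, Gzma, Ncr1, Cd9, Klrb1c, Ccr7, Pecam1, Plaur and Car2. Car2 (carbonic anhydrase 2) stood at 273, 218 and 244 CPM against 37.7, 20.1 and 25.9, and Plaur (the urokinase receptor) at 37, 64 and 157 against 6.85, 5.41 and 13. Pecam1 (CD31, an adhesion molecule of leukocytes and endothelium) stood at 96.1, 38.1 and 74.8 against 3.42, 7.72 and 5.18, and Cd9 (a tetraspanin) at 46.5, 46.3 and 87.6 against 0, 1.54 and 13. All 4 lay above cluster 9 without overlap. Without library 2 the log2 fold change of Pecam1 was 4.42 in place of 3.46, and without library 3 that of Cd9 was 5.31 in place of 4.09. The 10 largest falls were those of Trat1, Cd8a, Pdcd1, Cd200r4, Cd3e, Ass1, Cd200r1, Ifi27l2a, Ikzf2 and Klra6. Against class Cd8 the 10 largest rises were those of Ncr1, Klrb1b, Klrb1c, Tyrobp, Clnk, Klra7, Klra4, Itgax, Fcer1g and Klra8. Clnk, an adaptor of immune receptor signalling, stood at 61.3, 102 and 90.3 CPM against 0, 0.411 and 1.45, with 6 UMIs in all of class Cd8 and none of them in library 1 (log2 fold change 6.91; 8.38 without library 3). The 10 largest falls were those of Cd8b1, Cd8a, Havcr2, Ifi27l2a, Cd5, Tox2, Cd6, Pdcd1, Themis and Pclaf. Single libraries moved some of these values by over 1.5 times. Without library 1 the log2 fold change was -4.84 for Cd6 (main value -4.23) and 6.29 for Klra7 (6.89), and Pclaf was not tested. Without library 2 it was 7.96 for Klra7 and 8.73 for Klrb1c (8.03). Without library 3 it was -3.62 for Cd6, 5.95 for Itgax (6.63), -6.07 for Pclaf (-4.02) and, against cluster 9, -2.30 for Ifi27l2a (-3.08), while Havcr2, all of whose 8 cluster 8 UMIs are in library 3, then had none in cluster 8. Of the 10 falls, T cell coreceptors and signalling genes (Cd8b1, Cd8a, Cd5, Cd6 and Themis) made up 5.

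Ly49 receptors set cluster 8 apart from CD8 T cells as a family and from cluster 9 by member. The table holds 11 of 17 listed Klra genes and 9 were tested. All 9 were higher than in class Cd8, where 10.7% of all tested genes were, with a median log2 fold change of 5.75 against -0.01 over all tested genes. Against cluster 9, 5 were higher, 2 lower and 2 did not pass, with a median of 1.0 against 0.01. There, 2.74% of all tested genes were higher and 2.87% lower. The 9 include Klra4 and Klra8, which mark the cluster. The count of higher genes against cluster 9 was 3 without library 1 and 2 without CD3 cells.

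Klra4, whose start is printed above, stood at 426, 1089.8 and 1275 CPM in cluster 8, at 75.3, 88.8 and 199.6 in cluster 9 and at 4.21, 4.11 and 15.7 in class Cd8. Every cluster 8 value exceeded every value of the other groups. The log2 fold change was 3.01 (SE 0.19) against cluster 9 and 6.82 (SE 0.22) against class Cd8 by edgeR. Klra4 and Klra8 are among the genes that mark the cluster, so their values describe its identity and test nothing. Klra8 stood at 578, 545 and 385 CPM, at 279, 199 and 18.1 in cluster 9 and at 7.44, 10.3 and 2.03 in class Cd8. Klra8 too was highest in cluster 8 throughout, with log2 fold changes of 1.70 (SE 0.26) and 6.41 (SE 0.33). At 1000 UMIs, Klra8 was seen in 29.2%, 27.6% and 28.7% of cluster 8 cells, a range narrower than that of Klra4, at 29.2%, 51.2% and 64.8%.

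Klra5 and Klra6 ran the other way between the clusters. Klra5 stood at 154, 469 and 78.8 CPM in cluster 8 and at 1070.1, 841 and 656 in cluster 9, with no overlap (log2 fold change -2.17, SE 0.28, edgeR adjusted p = 3.3e-05; -2.92 without library 2). Klra6 stood at 22.2, 27.2 and 11.5 CPM against 188, 156 and 33.7 (log2 fold change -2.54, SE 0.26; -3.66 without Cd3e cells). Klra1 did not pass between the clusters, at 1205, 1720.5 and 357 CPM against 1341, 1502 and 145 (edgeR adjusted p = 0.67), and library 3 was lowest in both. Klra9 (log2 fold change 0.96, SE 0.30) did not pass either. Klra7 (1.01), Klra10 (1.0) and Klra3 (1.84) were higher in cluster 8, but each call rests on single libraries. Without library 1 the adjusted p by edgeR was 0.061 for Klra7 and 0.16 for Klra3, without library 2 it was 0.17 for Klra10, and without library 3 it was 0.10 for Klra3.

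**Figure D2:**
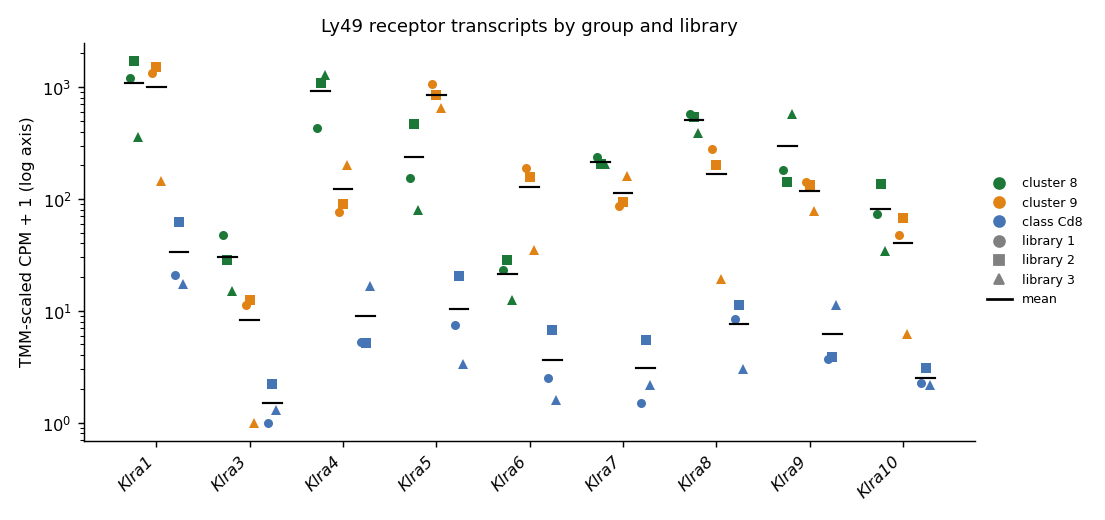
TMM-scaled CPM plus 1 on a log axis for the 9 tested Ly49 genes in cluster 8, cluster 9 and class Cd8, with 1 point per library and a bar at the mean of 3. All 9 have their lowest mean in class Cd8, Klra4 and Klra8 are highest in cluster 8, and Klra5 and Klra6 are highest in cluster 9.

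Ly49 genes are switched on in part at random in each NK cell, so cells carry different sets. At 2000 UMIs a cell, cluster 8 cells held UMIs of 2.63 ± 0.38 Ly49 genes on average, cluster 9 cells of 2.05 ± 0.51 and CD8 T cells of 0.0918 ± 0.0326 (SD, n = 3). By library the means were 2.41, 3.07 and 2.41 in cluster 8 and 2.49, 2.16 and 1.49 in cluster 9, so the clusters overlapped. At least 4 genes were seen in 27.4%, 43.4% and 24.0% of cluster 8 cells and in 22.1%, 19.5% and 8.20% of cluster 9 cells. No Ly49 gene was seen in 16.3%, 8.20% and 12.2% of cluster 8 cells and in 4.58%, 16.7% and 27.9% of cluster 9 cells, against 95.5%, 92.3% and 91.0% of CD8 T cells. In library 1 this share was higher in cluster 8 than in cluster 9, and in libraries 2 and 3 it was lower. Most pairs compared were held together more often than the product of their shares, by the mean over libraries. For Klra8 and Klra10 the ratio of cells with both to that product was 1.76, 1.63 and 1.70 in libraries 1 to 3, from 14, 18 and 8 cells. For Klra8 and Klra9 it was 1.67, 1.55 and 1.33. For Klra5 and Klra7 it was below 1 in each library, at 0.78, 0.64 and 0.87, from 5, 6 and 3 cells. These ratios are descriptions, and their cause was not tested. Close copies can share reads, though Klra4 and Klra8 have no 50-base window of the reference transcripts in common. Of the 50-base windows of Klra8 transcripts in GENCODE M21, 33.1% occur in another Klra gene or pseudogene, of Klra10 39.8% and of Klra9 31.5%, but of Klra5 0.66%, of Klra1 2.98% and of Klra4 4.35%. NOD mice also carry other Ly49 alleles and genes than the C57BL/6 reference, so each name is that of the reference gene to which reads were assigned. Levels of all Klra genes are therefore uncertain as to the copy. Within the reference, sharing was largest for Klra8, Klra9, Klra10, Klra3 and Klra7 among the 9 tested genes. These windows span whole reference transcripts, while the libraries read only the 3′ or the 5′ end.

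**Figure D3:**
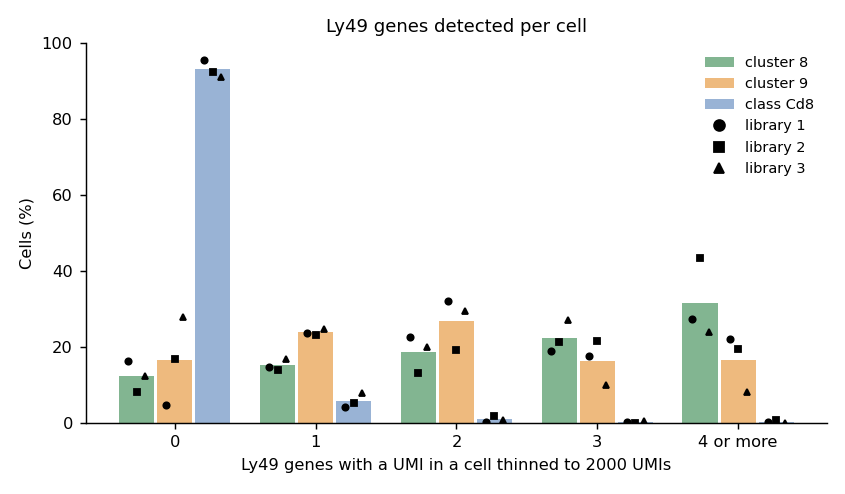
Percent of cells (y axis) by the number of Ly49 genes with a UMI (x axis) after thinning to 2000 UMIs, with bars at the mean of 3 libraries and 1 point per library. Cluster 8 has the tallest bar at 4 or more genes, while most class Cd8 cells hold none.

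The NKG2, CD94 and other Klr receptors were higher in cluster 8 for 10 of 12 tested genes against class Cd8, with 2 lower, and for 7 of 12 against cluster 9, with none lower (1 lower without library 3). Among all tested genes, 10.7% were higher and 10.4% lower than in class Cd8, and 2.74% and 2.87% against cluster 9. Klri2, which pairs with Klre1 in receptors of NK cells, stood at 263, 309 and 232 CPM in cluster 8, at 17.1, 11.6 and 2.59 in cluster 9 and at 39.2, 31.6 and 31.1 in class Cd8, the highest in cluster 8 throughout. Klrb1b, which binds the ligand Clr-b, stood at 208, 188 and 349 CPM, against 54.8, 61 and 150.3 in cluster 9. Klrd1 (CD94) did not pass between the clusters, at 680.4 ± 225 and 676 ± 171 CPM, and nor did Klrk1, at 543 ± 17.3 and 736 ± 242. Klrc1 (NKG2A) was lower than in class Cd8, at 50.7, 69.5 and 158 CPM against 128, 187 and 679, in an order that held within each library though the groups overlapped across libraries (log2 fold change -1.82, SE 0.39; DESeq2 adjusted p = 0.45).

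Among activating receptors and adaptors, 13 of 24 tested genes were higher than in class Cd8 and 7 lower, and 9 were higher and 5 lower than in cluster 9. The higher and lower shares over all tested genes were 10.7% and 10.4% against class Cd8 and 2.74% and 2.87% against cluster 9. Against cluster 9 the higher count was 4 without library 3 and 4 without CD3 cells, and the lower count was 3 without library 2 and 3 without library 3. Fcer1g did not pass between the clusters (905 ± 114 and 849.6 ± 50.6 CPM) and was at 10.1 ± 4.52 in class Cd8. Syk, the kinase that DAP12 recruits, stood at 57, 43.6 and 48.5 CPM in cluster 8 and at 5.14, 3.86 and 2.59 in cluster 9. Cd226 (DNAM-1), an activating receptor of NK and T cells, was lower than in cluster 9, at 71.8, 27.2 and 41.8 CPM against 202, 86.5 and 249, but not without CD3 cells (log2 fold change -1.93 became -0.78, edgeR adjusted p = 0.067).

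Listed checkpoint and other inhibitory receptors were lower in cluster 8 for 4 of 13 tested genes against cluster 9 and 7 of 13 against class Cd8. In each comparison 1 was higher (Lair1 and Cd96). Of all tested genes, 2.87% were lower and 2.74% higher than in cluster 9, and 10.4% and 10.7% against class Cd8. Lair1 had 22 UMIs in all of cluster 8 and 1 in cluster 9, and its call was lost whichever library was left out (edgeR adjusted p = 0.034 with all, and 0.19, 0.079 and 0.19 without libraries 1, 2 and 3) and by DESeq2 (0.11). Pdcd1 (PD-1) stood at 13.7, 50.4 and 28.3 CPM, against 207, 728 and 739 in cluster 9 and 286, 570.5 and 686 in class Cd8, below both in all libraries. Lag3 stood at 117 ± 35 CPM, against 397 ± 234 and 509 ± 156.

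Of 23 tested genes for granule proteins and death ligands, 7 were higher and 2 lower than in cluster 9 (none lower without library 1), and 10 were higher and 4 lower than in class Cd8. Shares over all tested genes were 2.74% higher and 2.87% lower against cluster 9, and 10.7% and 10.4% against class Cd8. Prf1, the pore-forming perforin, stood at 518, 576 and 510.0 CPM in cluster 8, at 252, 208 and 174 in cluster 9 and at 184, 275 and 152 in class Cd8. No cluster 8 value overlapped with another group, and the log2 fold changes were 1.37 (SE 0.15) and 1.43 (SE 0.14). Gzmb (granzyme B) stood at 586, 1173 and 1031 CPM, against 399, 381 and 428 in cluster 9 and 172, 443 and 341 in class Cd8. Without cells holding any CD3 UMI, the Gzmb difference from cluster 9 did not pass (log2 fold change 1.15 became 0.83, edgeR adjusted p = 0.10). That setting left 45, 8 and 54 cluster 8 cells, and the part of fewer cells in the loss was not tested. Serpinb9, which protects the killer cell from its own granzyme B, stood at 413, 214 and 555 CPM, against 54.8, 79.5 and 104 in cluster 9 and 37.2, 82.1 and 102 in class Cd8. Serpinb6b, another serine protease inhibitor, was also highest in cluster 8, at 296 ± 95 CPM against 49.5 ± 10.6 and 65.7 ± 26.6.

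Gzma was uneven between libraries and cells. It stood at 1091, 402 and 1452 CPM in cluster 8 and at 113, 98.2 and 129 in class Cd8, while in cluster 9 it had 78 UMIs in library 1 (134 CPM) and 0 in libraries 2 and 3. Gzma also marks the cluster, so its rise describes identity. The log2 fold change against cluster 9 was 4.58 (SE 0.53), and 3.92 without library 3. Without library 1, cluster 9 had no Gzma UMI, and the fitted value of 13.13 is then no measure of size. Against class Cd8 the log2 fold change of 2.97 (SE 0.41) passed by edgeR and not by DESeq2 (adjusted p = 0.48). Gzmk, a granzyme of memory CD8 T cells, was lower than in class Cd8, at 22.2, 20.4 and 74.1 CPM against 287, 414 and 759 (log2 fold change -3.67, SE 0.17). Nkg7, a granule membrane protein, was lower in both comparisons, at 1957 ± 209 CPM against 2843 ± 305 and 2778 ± 292, though not against cluster 9 without library 1 (log2 fold change -0.54, edgeR adjusted p = 0.073).

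Of 16 tested cytokines and chemokines, 7 were lower than in cluster 9 and none higher, and 9 were lower than in class Cd8 and 1, Tgfb1, higher. The count against cluster 9 was 2 without library 1, 3 without library 3, 4 without Cd3e cells and 3 without CD3 cells, where 1 was higher. Beside these, 2.87% of all tested genes were lower than in cluster 9 and 10.4% lower than in class Cd8, with 2.74% and 10.7% higher. Ccl5, which attracts T cells and macrophages, stood at 3913, 6947 and 3249.8 CPM in cluster 8, at 16401, 21232 and 20366 in cluster 9 and at 16852, 31548 and 19626 in class Cd8. All cluster 8 values lay below all others (log2 fold changes -2.11, SE 0.15, and -2.28, SE 0.15). Ccl4 stood at 434, 159 and 187 CPM, against 1652, 771 and 708 in cluster 9 and 993, 884 and 1243 in class Cd8, again without overlap. Tnf stood at 4.23, 5.45 and 8.08 CPM, against 20.5, 15.4 and 25.9 in cluster 9 and 23.5, 14.8 and 26.7 in class Cd8. The Tnf difference from cluster 9 (log2 fold change -1.80, SE 0.37) did not pass without library 1 (edgeR adjusted p = 0.052) or library 3 (0.061). Ifng, which encodes interferon-gamma, was at 82.2 ± 29.2 CPM, beside 94.2 ± 19.4 in cluster 9 (edgeR adjusted p = 0.82), and was lower than in class Cd8 at 220.0 ± 59.2 (log2 fold change -1.46, SE 0.16). Xcl1, which draws in cross-presenting dendritic cells, stood at 676, 504 and 579 CPM, beside 347, 544 and 395 in class Cd8 (edgeR adjusted p = 0.17). It was lower than in cluster 9 (1779, 1998 and 559.9), where library 3 was not, and the call was lost without library 1 or library 2 (edgeR adjusted p = 0.061 and 0.11).

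**Figure D4:**
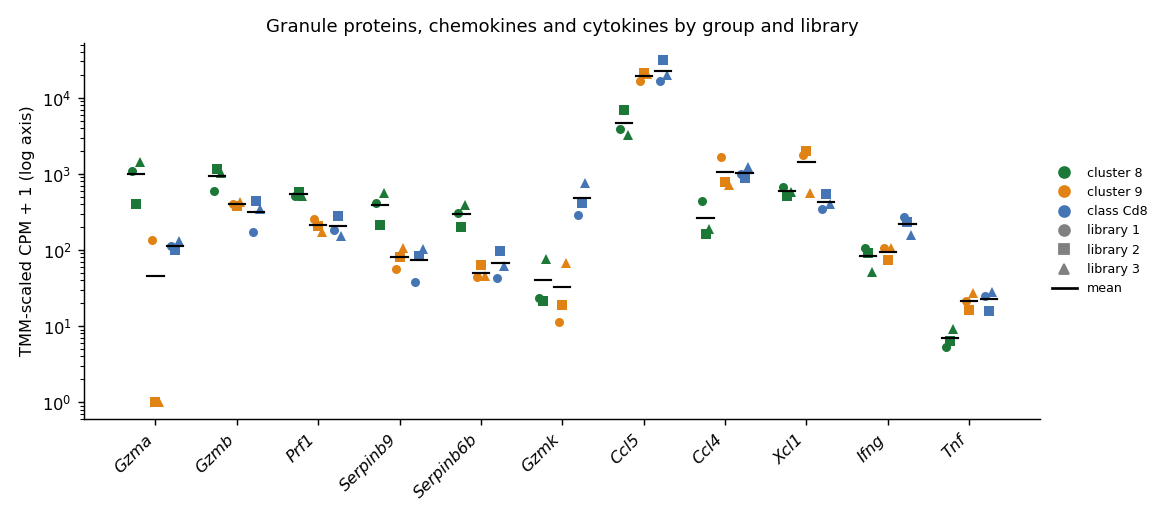
TMM-scaled CPM plus 1 on a log axis for granule proteins and their inhibitors (Gzma to Gzmk) and for chemokines and cytokines (Ccl5 to Tnf), with 1 point per library and a bar at the mean of 3. Gzma, Gzmb, Prf1, Serpinb9 and Serpinb6b have their highest means in cluster 8, while Ccl5, Ccl4 and Tnf have their lowest there.

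The contrast with class Cd8 depends on which CD8 T cells are taken, since the authors' class joins clusters 3 and 4. With cluster 3 alone, 4 of 14 tested cytokines and chemokines were lower and 2 higher, and with cluster 4 alone 11 of 17 were lower and 2 higher. Of all 8452 genes tested against cluster 3, 912 were lower and 935 higher. Of all 8818 tested against cluster 4, 938 were lower and 1018 higher. For the whole class these shares were 10.4% and 10.7%. Ly49 genes were higher for 9 of 9 against either cluster. Cell cycle genes were lower in cluster 8 for 15 of 17 tested against the whole class, 3 of 12 against cluster 3 and 18 of 18 against cluster 4. Mki67, a marker of dividing cells, stood at 15.8, 6.81 and 18.2 CPM in cluster 8 and at 205, 29.2 and 75.8 in class Cd8. Its log2 fold change of -2.72 (SE 0.32) was -0.10 against cluster 3 alone (edgeR adjusted p = 0.88), -2.0 without library 1 and -3.32 without library 3. None of the 17 cell cycle genes passed between clusters 8 and 9 by edgeR, beside 5.61% of all tested genes. Without library 3, 1 of 17 did. Type I interferon response genes were lower for 11 of 16 against the whole class, 15 of 17 against cluster 3 and 3 of 15 against cluster 4, where 1 was higher. Without library 3 the count for the whole class was 3 of 14, with 1 higher. Against cluster 9, 2 were lower, Ifi27l2a and Ifit1 (1 without library 3), beside 2.87% of all tested genes. Ifi27l2a changed most of them, at 35.9, 19.1 and 62 CPM in cluster 8 against 924, 729 and 1696.

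Of 27 tested receptors for homing, adhesion and egress, 9 were higher and 7 lower than in cluster 9 (4 lower without library 3), and 10 were higher and 10 lower than in class Cd8. Over all tested genes, 2.74% were higher and 2.87% lower than in cluster 9, and 10.7% and 10.4% against class Cd8. Ccr7, a receptor for entry into lymph nodes, stood at 56, 27.2 and 125 CPM against 8.56, 0.772 and 7.78 in cluster 9 (log2 fold change 3.82, SE 0.43; 4.54 without library 1). B cells also express Ccr7. The 4 B cell markers summed to 61.5, 1.29 and 4.41 CPM (unscaled) in cluster 8, highest in library 1, while Ccr7 was highest in library 3. The part of B cell transcripts in Ccr7 was not tested. Itga2 (CD49b, of circulating NK cells) stood at 53.9, 29.97 and 29.6 CPM against 3.42, 11.6 and 2.59 in cluster 9 (log2 fold change 2.40, SE 0.42; 3.81 without library 2). Itgam (CD11b, of mature NK cells) stood at 28.5, 28.6 and 33 CPM against 5.14, 3.09 and 7.78. Cxcr6, a receptor of resident lymphocytes, was lower than in cluster 9, at 176, 92.6 and 121 CPM against 635, 565 and 959. Itgae (CD103, which binds epithelial cadherin) stood at 87.7, 170.3 and 237 CPM against 293, 263 and 583, and Itga4 at 113 ± 25.6 against 251 ± 36.6. All 3 were lower. Itga1 (CD49a, of resident NK cells and ILC1) did not pass between the clusters, at 271, 279 and 203 CPM against 344, 275 and 207, and stood at 30.8 ± 11.4 in class Cd8.

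Innate lymphoid cells of type 1 (ILC1) resemble NK cells but stay in tissues, and 8 of 13 tested ILC1 genes were lower in cluster 8 than in cluster 9 and none higher, where 2.87% of all tested genes were lower. Against class Cd8, 5 were higher (3 without library 3) and 5 lower. Those lower than in cluster 9 were Cxcr6, Cd200r1, Ikzf2, Cd3g, Inpp4b, Tnfsf10, Fgl2 and Il7r. Cd3g, which the list holds, is also a T cell gene. In cluster 9, 96.0% of cells held a Cd3e UMI, so lower values than there do not tell NK cells from ILC1. The Tnfsf10 call was lost without library 1 (log2 fold change -0.89 became -0.51), and that of Il7r without library 2 or library 3 (-0.65 became -0.73 and -0.38). Ikzf2 (Helios) stood at 156, 55.9 and 43.8 CPM against 711, 747 and 236, and Cd200r1 at 11.6, 4.09 and 14.8 against 71.9, 100.4 and 98.5. Both were below cluster 9 in all libraries. The mature NK list had 7 of 15 tested genes higher than in cluster 9 and 1 lower (3 lower without library 2), and 7 higher and 6 lower than in class Cd8. The immature NK list had 2 of 14 tested genes higher and 3 lower than in cluster 9, and 6 higher and 4 lower than in class Cd8. Against cluster 9 its higher count was 1 without library 1, 3 without library 2 and 0 without library 3, and its lower count was 1 without library 2. Over all tested genes the shares were 2.74% higher and 2.87% lower against cluster 9, and 10.7% and 10.4% against class Cd8. Some genes of late maturation had few counts in cluster 8. Cx3cr1 stood at 5.28, 4.09 and 1.35 CPM, S1pr5 had 5, 0 and 6 UMIs and Cma1 had 3, 0 and 8. They do not stand for the mature NK list, whose median log2 fold change was 0.68 against cluster 9 and 0.31 against class Cd8. Itgam, of mature NK cells and given above, was higher than in cluster 9 in every library. Cd27, lost in the last stage of maturation, stood at 182 ± 30.1 CPM in cluster 8 and 190.2 ± 22.1 in cluster 9.

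Of 31 tested transcription factors, 7 were higher and 5 lower than in cluster 9 (3 lower without library 2 and 2 without library 3), where 2.74% of all tested genes were higher and 2.87% lower. Against class Cd8, 6 were higher and 12 lower, beside 10.7% and 10.4% of all tested genes. Eomes, which NK cells need and ILC1 largely lack, stood at 256, 80.4 and 212 CPM in cluster 8, at 59.9, 62.5 and 36.3 in cluster 9 and at 197, 115 and 142 in class Cd8. It was higher than in cluster 9 (log2 fold change 1.57, SE 0.25; 2.27 without library 2) and did not pass against class Cd8. Tbx21 (T-bet), shared by NK cells and ILC1, did not pass between the clusters (181 ± 42 and 157 ± 42.7 CPM) and was higher than in class Cd8 (55.4 ± 30.3). Irf8 stood at 996, 883 and 911 CPM, against 375, 253 and 117 in cluster 9 and 47.8, 23 and 30.2 in class Cd8, apart from both throughout. Bcl11b, a T cell commitment factor, stood at 28.4 ± 16.9 CPM, against 62.5 ± 14.6 in cluster 9 and 205 ± 87.4 in class Cd8, and its log2 fold change against cluster 9 of -1.15 became -1.74 without Cd3e cells. Of 32 tested cytokine receptor and signalling genes, 5 were higher and 4 lower than in cluster 9 (1 and 0 without library 3; 2 lower without library 1 or library 2), and 6 higher and 6 lower than in class Cd8 (3 lower without library 3), beside the same shares over all tested genes. Il2rb, the receptor chain for interleukins 2 and 15, was at 1122 ± 191 CPM in cluster 8 and 1009 ± 137 in cluster 9, above 412 ± 79.6 in class Cd8.

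T cell receptor and signalling genes were lower for 15 of 23 tested against cluster 9 and 20 of 23 against class Cd8, and 1 was higher in each, Cd28 and Trdc. Without cells holding a Cd3e UMI the lower counts were 16 and 21. Those cells were removed from cluster 8 alone and by a T cell gene, so these counts are no check. With all cells, the lower shares over all tested genes were 2.87% and 10.4%, and the higher shares 2.74% and 10.7%. Cd28, a costimulatory receptor, stood at 166, 77.6 and 125 CPM against 32.5, 20.1 and 111 in cluster 9. Its call was lost without library 1 or library 2 (edgeR adjusted p = 0.24 and 0.071), while without library 3 its log2 fold change became 2.26. Against class Cd8 it was lower (478 ± 52.4 CPM). Cd5, which damps T cell receptor signals, stood at 14.8, 2.72 and 6.74 CPM in cluster 8 against 174, 92.4 and 202 in class Cd8 (log2 fold change -4.37, SE 0.30; -4.97 without library 1).

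Counts within cluster 8 were most uneven for transcripts of several kinds. Among genes ranked by Fano factor (variance over mean) at 1000 UMIs a cell, 11 were in the top 30 in all 3 libraries: Gzma, Gzmb, Ccl5, Ccl4, Rgs1, S100a6, Tmsb4x, Malat1, Gm42418, mt-Co3 and mt-Atp6. The Fano factor of Gzma was 12.8, 19.1 and 14.6 in libraries 1 to 3, and that of Ccl5 10.9, 21.2 and 11.3. That of Gm42418, a gene that overlaps ribosomal RNA, was 32.2, 2.62 and 22.0, the highest of all ranked genes in libraries 1 and 3, and that of the nuclear RNA Malat1 was 10.7, 4.54 and 16.0. These values stood beside medians over the ranked genes of 1.04, 0.99 and 1.06.

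Cells with and without a Gzma UMI at 2000 UMIs differed along other genes in the same direction in every library. Gzma was seen in 41, 13 and 48 cells of libraries 1 to 3 and not in 149, 109 and 148. Ncr1 was held by 56.1%, 53.8% and 68.8% of Gzma cells and by 27.5%, 12.8% and 37.2% of the others, and Serpinb9 by 80.5%, 53.8% and 79.2% against 30.2%, 23.9% and 45.9%. Cd3g ran the other way, with 29.3%, 61.5% and 27.1% against 68.5%, 88.1% and 64.9%, as did Itga1, with 14.6%, 23.1% and 20.8% against 33.6%, 48.6% and 30.4%. Cells with Gzma were thus richer in Ncr1 and Serpinb9 and poorer in Cd3g and Itga1. Il7r was held by 0%, 7.69% and 0% of Gzma cells and 17.4%, 11.9% and 12.2% of the others. Klra8 was held by 48.3 ± 1.97% and 44.7 ± 3.5% of cells, and Klra8 and Klra4 were not ordered alike across libraries. Ccl5, Ccl4 and Xcl1 were held by a larger share of the Gzma cells in all 3 libraries. Gzma cells had the lower median depth before thinning in each library. These shares carry no test, and the 13 Gzma cells of library 2 give the least precise values.

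**Figure D5:**
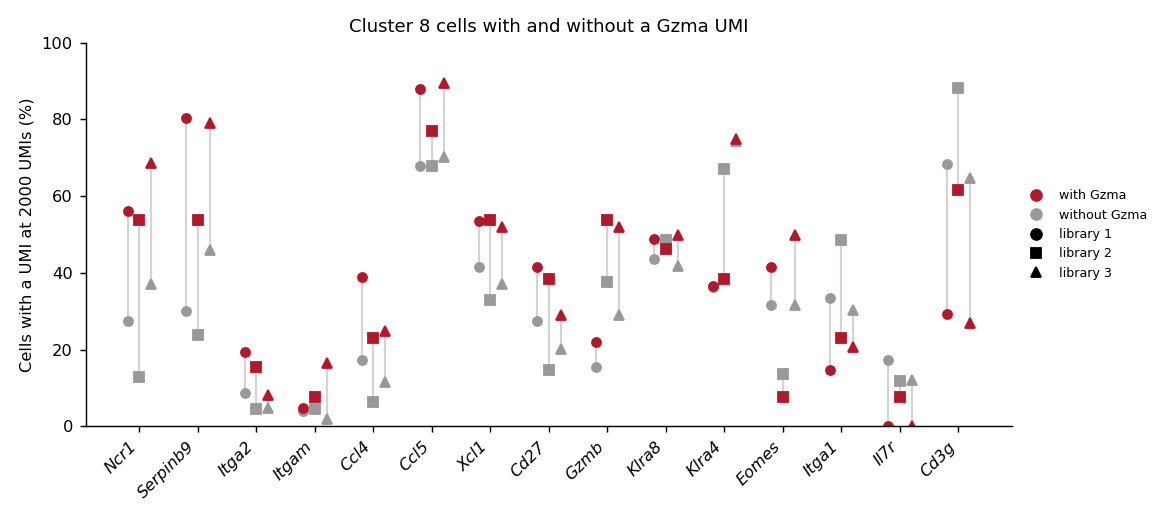
Percent of cluster 8 cells with a UMI of each gene after thinning to 2000 UMIs, for cells with (red) and without (grey) a Gzma UMI, with 1 pair of joined points per library. Red lies above grey in all 3 libraries for Ncr1, Serpinb9, Ccl4, Ccl5 and Xcl1 and below it for Itga1, Il7r and Cd3g.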

How the data were processed

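The authors deposited 1 table of UMI counts, whole numbers without scaling, for 17168 genes in 11640 cells, and 1 cell table with class, cluster, total counts, detected genes and the percent of mitochondrial UMIs. Totals recomputed from the counts equal those deposited in all cells. Cell Ranger 5.0.1, Seurat 4.0 and mm10 are named in the submitters' processing notes without roles. Aligner settings are not given in the sources used here. All deposited cells were kept.

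Counts were summed over the cells of each group in each library (9 sums) and tested with edgeR 4.0.16 in R 4.3.3 (TMM, filterByExpr, quasi-likelihood F-test, library as a block, Benjamini-Hochberg over 8801 genes, adjusted p under 0.05). The standard error of a log2 fold change was taken by dividing it by the square root of its F statistic. Levels are counts per 1000000 UMIs (CPM) after TMM scaling, mean ± SD over 3 libraries. Marker sums of other cell types are unscaled, as are Trbc1, Trbc2 and the Trac values set beside them. Deviations from group means correlated within libraries at 0.62, 0.65 and 0.81 between clusters 8 and 9, and at 0.76, 0.72 and 0.91 between cluster 8 and class Cd8 (8801 genes); the groups of a library come from 1 preparation. Cells were thinned without replacement to 1000 or 2000 UMIs, which left out 14 cluster 8 cells at 1000. Doublets were sought per library with scrublet (scanpy 1.11.5) and kept. The script was tested on simulated data. Alternatives used DESeq2 1.42.0 and limma 3.58.1.

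Members, lists and tests were chosen with earlier results of these data known. Genes named are, per comparison, the 10 largest and 10 smallest log2 fold changes that passed with the same sign in 3 libraries and at least 50 CPM in the higher group (no ribosomal, mitochondrial, receptor segment or predicted genes), up to 4 per direction from each of 17 lists, a list of marker and effector genes whatever their values, and genes in the top 30 by Fano factor in each library at a mean of at least 0.05 UMI a cell. Other list members named, and the genes set against Gzma and Cd3e cells, were chosen after their values were seen. 1 gene that the rule names is not reported here. Intervals cover counting error only.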

Additional observations from a re-analysis of the deposited data

How the results depend on the processing

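The count of genes that differed between clusters 8 and 9 (494) was 336 with DESeq2, 706 without a filter on low counts, 442 with these groups alone, 495 without doublets, 492 in cells of at least 2000 UMIs and 520 with renamed genes joined. It was 18 with no replicate block, 165 by limma on 72 cells per sum, 293 without cells holding a CD3 UMI, and 230 to 376 when 1 library was left out. Against class Cd8 (1853) it was 1192 with DESeq2, 2373 without the filter, 329 with no replicate block, 490 by limma on equal cells, 762 without CD3 cells, 1847 and 1956 against clusters 3 and 4, and 1155 to 1524 when 1 library was left out. The cause of these shifts was not tested, except that equal cells, a left-out library and the removal of CD3 cells leave fewer cells to test. The share of cells in cluster 8 (5.36%) was 0.913% without CD3 cells, since fewer cells are counted, 4.09% without Cd3e cells, and 4.31 to 6.36% when 1 library was left out. Of 233 log2 fold changes of named genes, 140 that passed no longer did with no replicate block, 19 with DESeq2, 18, 14 and 35 without library 1, 2 and 3, 28 without CD3 cells and 7 without Cd3e cells. Direction changed for Tcf7 against cluster 9 without CD3 cells (-0.26), for Gpr183 (1.63), Il7r (1.29), Klf2 (1.49), S1pr1 (0.11) and Tcf7 (0.98) against class Cd8 with its cluster 4 alone, and for Nr4a2 (0.37) with its cluster 3 alone; the cause was not tested. The joined names and the removal of Cd3e cells were chosen after seeing the data. Shares of cells with a UMI were higher at 2000 UMIs than at 1000 for all genes compared but Zbtb16, so the depths are not compared with each other. Genes near 1 UMI per sum, and shares in library 2 (123 cells), are limited by depth.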

Other observations

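Of 23 tested genes of the TNF axis, the pathway from tumour necrosis factor through its receptors to NF-kB, 7 were higher and 3 lower in cluster 8 than in class Cd8, where 10.7% and 10.4% of all tested genes were. The higher genes were the NF-kB subunits Nfkb1, Nfkb2, Rela and Relb, with Birc2, Birc3 and Tab2, which link receptors to kinases. The calls of Rela (without library 1 or 2), Relb and Nfkb2 (without library 3) were lost, with edgeR adjusted p of 0.25, 0.10, 0.059 and 0.080. Birc2 stood at 117, 282 and 78.8 CPM in cluster 8 and at 64.9, 121 and 46.7 in class Cd8, higher in each library. Tnf, Lta and Traf1 were lower, and 1 of the 3 without library 3. Against cluster 9, 2 were higher (Birc3 and Nfkbia) and 3 lower (Tnf, Lta and Tnfaip3), and none was lower without library 1 or without library 3. There, 2.74% of all tested genes were higher and 2.87% lower with all libraries. Birc3 did not pass without library 2 or 3 (edgeR adjusted p = 0.39 and 0.27). Nfkbia, the inhibitor that NF-kB induces, stood at 413, 384 and 272 CPM against 288, 195 and 153.

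Of 20 immediate-early genes, which tissue digestion also induces, 8 were higher and 4 lower than in class Cd8, with 5 higher without library 1 and 1 lower without library 3. The shares over all tested genes were again 10.7% and 10.4%. Against cluster 9 none was higher and 3 lower (Jund, Dusp1 and Klf6), beside 2.74% and 2.87% of all tested genes. Fos stood at 224, 386 and 298 CPM in cluster 8, at 283, 381 and 254 in cluster 9 and at 198, 203 and 156 in class Cd8. Kit, a growth factor receptor of immature NK cells, stood at 13.7, 10.9 and 16.8 CPM in cluster 8 and at 1.24, 0 and 0.29 in class Cd8 (log2 fold change 4.44, SE 0.59 by edgeR; 5.89 without library 1).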
